A study of Mus musculus with 11 samples.

Results

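The genes described here are chaperone genes known as targets of heat shock factor 1 (HSF1) and the gene for HSF1 itself, 10 in all: Hspa1a, Hspa1b, Hsph1, Dnajb1, Hsp90aa1, Hsp90ab1, Hspa8, Fkbp4, Hspa4 and Hsf1. They were matched by symbol to the array's probe sets, and 8 of the 10 had at least 1 probe set that names no other gene, 11 probe sets in all among the 23521 with 1 symbol (22180 genes). Hsp90ab1 and Hsf1 had none and are not analysed here. Signal was measured on 11 single-colour arrays of RNA from the line 720, a T-cell leukaemia (T-ALL) line that was derived from a Tcf12+/- mouse with a Tal1 transgene under the Lck promoter, so every group shares both changes and comes from 1 line. Exposure lasted 8 h, with AI-7-54 on 3 arrays (numbered 1, 3 and 4) and AI-8-45 on 4 arrays, both dosed at 100 µM, and AI-9-54 on 4 arrays, dosed at 50 µM. All are named in the labels as inhibitors of the Runt domain, which is the DNA-binding part of RUNX transcription factors, and the compounds are known here by code names. Vehicle-treated arrays were not analysed here, and the values are differences between compounds, never responses to treatment.

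HSF1 is the transcription factor that switches on chaperone genes when unfolded proteins accumulate. In resting cells chaperones hold it inactive, and on stress it forms trimers that bind heat shock elements, which are inverted repeats of a short GAA unit. The HSP70 proteins, their J-domain partners, the HSP110 exchange factors and HSP90 with its co-chaperones form 1 folding system, and leukaemia cells that grow fast are known to make much of it. Some of its genes, such as Hspa1a and Hspa1b, are low until stress, while others, such as Hspa8, are made constantly.

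Promoters are shown first because the members differ in matches to these elements near the start. RefSeq's promoter table (build GRCm38.p6, 250 bases before and 50 after each start) held Hspa1a, Hspa1b, Hsph1, Dnajb1, Fkbp4 and Hspa4 and had no entry for Hsp90aa1, Hsp90ab1, Hspa8 or Hsf1. The search used the 2-unit forms GAANNTTC and TTCNNGAA and a 3-unit form, GAANNTTC followed by NNGAA, on both strands, and the shorter forms lie within the longer one. Before the start, the 3-unit form with at most 1 mismatch was found in 4 of the 6 members, Fkbp4, Hspa1a, Hspa1b and Hsph1, and in 6.08% of all 32851 promoters. Allowing 1 mismatch was chosen after seeing the data, and the members were listed as known HSF1 targets, so this count carries no test. The exact 3-unit form was in none of the 6 before the start and in 0.466% of all promoters. GAANNTTC was found in Hspa1a, Hspa1b and Fkbp4 (6.69% of all promoters) and TTCNNGAA in Hsph1 (7.17%). For Hspa4 and for Dnajb1, which has 2 listed starts, these letters were not found in any window. Elements outside the windows or in looser forms were not searched, so this does not show that these genes lack one. Members are counted as genes with a match at any listed start, while the shares are over promoters, of which a gene can have several. The stretches below run 5′ to 3′ on the minus strand for Hspa1b, Fkbp4, Hsph1 and Hspa4 and on the plus strand for Dnajb1, and capitals mark matches to the 2-unit forms or to the 3-unit form with up to 1 mismatch.
Hspa1b, chr17:34959239-34959448: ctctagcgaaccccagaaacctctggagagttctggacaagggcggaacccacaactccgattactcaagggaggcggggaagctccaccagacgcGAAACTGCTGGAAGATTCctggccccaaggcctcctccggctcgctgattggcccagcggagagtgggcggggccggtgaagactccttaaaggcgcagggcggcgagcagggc
Fkbp4, chr6:128438717-128438826: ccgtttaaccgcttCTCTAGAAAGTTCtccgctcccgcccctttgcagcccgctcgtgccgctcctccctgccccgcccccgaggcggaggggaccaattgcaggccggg
Hsph1, chr5:149636337-149636466: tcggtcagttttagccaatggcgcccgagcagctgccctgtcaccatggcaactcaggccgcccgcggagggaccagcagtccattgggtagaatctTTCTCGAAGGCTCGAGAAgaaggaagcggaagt
Hsph1 after the start, chr5:149636287-149636309: tgctGCAGATTCTGGAAAGTTCt
Hspa4, chr11:53300480-53300579: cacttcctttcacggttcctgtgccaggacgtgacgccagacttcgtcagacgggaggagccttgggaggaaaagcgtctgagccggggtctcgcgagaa
Dnajb1, chr8:83608015-83608114: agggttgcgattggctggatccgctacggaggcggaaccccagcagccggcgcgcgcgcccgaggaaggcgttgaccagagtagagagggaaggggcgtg
The windows of Hspa1a and Hspa1b were identical at 296 of 300 bases, 98.7%. Counted from 1 at the 5′ end of the window, the Hspa1b base first and the Hspa1a base last, the differences were T44C, C47T, G249T and T276C, and none lay in the capital letters, which ran from -114 to -97 relative to the start in both. In Fkbp4 the match ran from -156 to -144. Hsph1 has 2 listed starts, and measured from the upstream one its matches before the start ran from -33 to -16. An exact 3-unit match, TTCTGGAAAGTTC, lay 37 to 49 bases after that start. In the whole 300-base window 0.603% of promoters held an exact 3-unit match. CCAAT, the letters bound by the factor NF-Y in many chaperone promoters, was found on either strand before the start in Hspa1a, Hspa1b, Hsph1, Fkbp4 and Dnajb1 and in 33.8% of all promoters. A match is only a description of letters, and no binding was measured.

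Hspa1b, which encodes a stress-inducible HSP70, was the member with the widest range. Its log2 signal was 8.85, 9.05 and 8.43 after AI-7-54, 7.07, 6.89, 6.77 and 6.59 after AI-8-45, and 7.05, 7.34, 7.27 and 7.55 after AI-9-54. All 3 AI-7-54 arrays lay above every array of the other compounds, and those 2 compounds overlapped. After AI-8-45 the gene was 3.86-fold lower than after AI-7-54 at the same dose (6.83 ± 0.20, SD, n = 4, against 8.78 ± 0.32, n = 3; log2 difference -1.95, 95% interval -2.28 to -1.62, limma adjusted p 2.96e-05), the second largest difference in size among 22180 genes. After AI-9-54 it was 2.78-fold lower (7.30 ± 0.21, n = 4; difference -1.48, interval -1.81 to -1.15, limma adjusted p 4.96e-05).

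Hspa1a, the neighbouring gene, encodes a near-identical inducible HSP70, and the transcripts of both are alike, which leaves the split of signal between them uncertain. Its signal was 7.52, 7.02 and 7.05 after AI-7-54, 6.62, 6.69, 6.40 and 6.52 after AI-8-45, and 6.76, 6.79, 6.74 and 6.86 after AI-9-54. The 3 groups did not overlap, with AI-7-54 highest and AI-8-45 lowest. The difference from AI-7-54 was -0.64 ± 0.11 (SE) after AI-8-45 (limma adjusted p 0.00438) and -0.41 ± 0.11 after AI-9-54 (adjusted p 0.0214). The latter call ended without AI-9-54 replicate 3 (adjusted p 0.051), and without AI-7-54 replicate 1, the highest array, the difference was -0.25 (adjusted p 0.048). The signal lay near the array medians of 6.61 to 6.68, and no background level was at hand. A further probe set, which lists both genes and names neither alone, lay between 5.22 and 5.37 on every array and differed by 0.06 after AI-8-45 and -0.01 after AI-9-54 (adjusted p 0.713 and 0.966 over all 41345 probe sets). It did not follow the other probe sets of the pair.

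**Figure D1:**
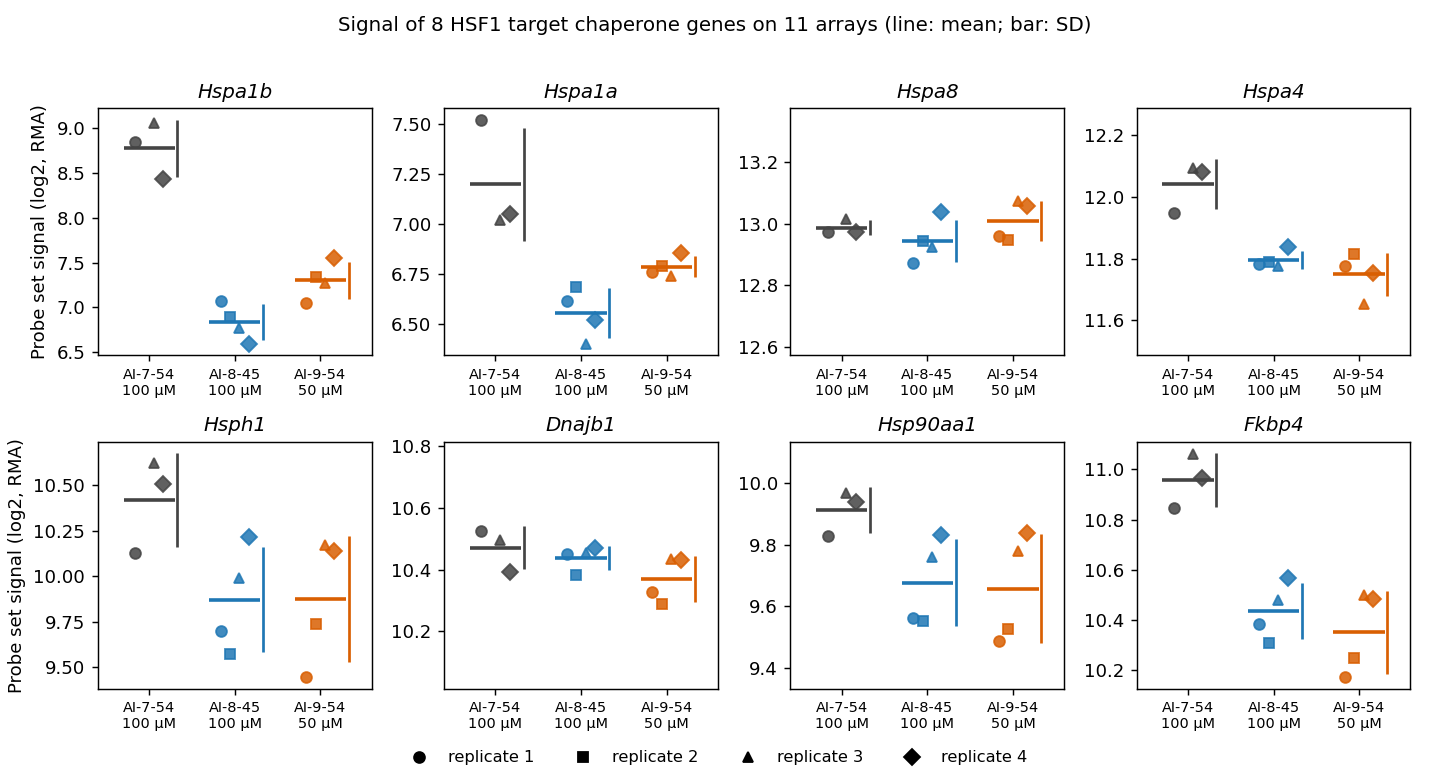
Log2 RMA signal (vertical axis) of the probe set with the highest mean of each gene, by compound and dose (horizontal axis). Each point is an array with its replicate number as the symbol, the line is the group mean and the bar its SD; Hspa1b after AI-7-54 lies between 8.43 and 9.05, above every other array of that gene.

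Fkbp4, the gene for an immunophilin that serves HSP90 as a co-chaperone for steroid receptors, was also lower after both compounds than after AI-7-54. Its signal was 10.85, 11.06 and 10.96 after AI-7-54, 10.39, 10.31, 10.48 and 10.57 after AI-8-45, and 10.17, 10.25, 10.50 and 10.48 after AI-9-54. Every AI-7-54 array lay above all 8 others. The difference was -0.52 ± 0.09 (SE) after AI-8-45 (interval -0.72 to -0.33, limma adjusted p 0.00546) and -0.61 ± 0.09 after AI-9-54 (interval -0.80 to -0.41, adjusted p 0.000702).

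Hspa4 encodes an HSP110 protein that exchanges the nucleotide of HSP70. Its signal was 11.95, 12.09 and 12.08 after AI-7-54, 11.78, 11.79, 11.78 and 11.84 after AI-8-45, and 11.78, 11.82, 11.65 and 11.75 after AI-9-54. Here too the AI-7-54 arrays lay above the rest, by a smaller step. The difference was -0.24 ± 0.05 (SE) after AI-8-45 (limma adjusted p 0.0156) and -0.29 ± 0.05 after AI-9-54 (adjusted p 0.00232). The first call was lost when AI-7-54 replicate 3 was dropped (adjusted p 0.0866) and when AI-7-54 replicate 4 was dropped (adjusted p 0.0762).

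Hsph1, the stress-inducible HSP110 gene, had a difference whose call depended on how the replicates entered the fit. Its signal was 10.13, 10.62 and 10.51 after AI-7-54, 9.70, 9.57, 9.99 and 10.21 after AI-8-45, and 9.44, 9.74, 10.17 and 10.14 after AI-9-54. The groups overlapped, because replicate 1 of AI-7-54 lay below some arrays of replicates 3 and 4 of the other compounds. The difference was -0.55 after either compound, with intervals of -0.97 to -0.13 (AI-8-45, limma adjusted p 0.139) and -0.96 to -0.13 (AI-9-54, adjusted p 0.0851). With the replicate number as a block it was -0.48 after either (limma adjusted p 0.0106 after AI-8-45 and 0.00443 after AI-9-54).

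Hsp90aa1, the gene for the inducible HSP90 form, had a smaller difference, and its call also depended on the replicates. Its signal was 9.83, 9.97 and 9.94 after AI-7-54, 9.56, 9.55, 9.76 and 9.83 after AI-8-45, and 9.49, 9.53, 9.78 and 9.84 after AI-9-54. The groups overlapped narrowly at AI-7-54 replicate 1. The difference was -0.24 after AI-8-45 (interval -0.44 to -0.03, limma adjusted p 0.218) and -0.25 after AI-9-54 (interval -0.46 to -0.05, adjusted p 0.109, or 0.0499 without AI-9-54 replicate 4). With the replicate number as a block it was -0.19 after AI-8-45 (limma adjusted p 0.0632) and -0.21 after AI-9-54 (adjusted p 0.0225), and with replicates 1 and 2 set apart from 3 and 4 in the model the adjusted p was 0.0199 and 0.00609.

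Dnajb1, which encodes the J-domain partner that feeds clients to HSP70 and is a classic HSF1 target, differed little. Its signal was 10.53, 10.50 and 10.39 after AI-7-54, 10.45, 10.38, 10.45 and 10.47 after AI-8-45, and 10.33, 10.29, 10.43 and 10.43 after AI-9-54. The groups overlapped. The difference was -0.03 after AI-8-45 (interval -0.14 to 0.08) and -0.10 after AI-9-54 (interval -0.21 to 0.01), with limma adjusted p 0.858 and 0.26. These intervals do not reach the differences of Hspa1b or Fkbp4, but the members were not tested against each other.

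Hspa8, the constitutive HSP70 gene, had 4 probe sets of its own. The one with the highest mean had a signal of 12.97, 13.01 and 12.97 after AI-7-54, 12.87, 12.94, 12.92 and 13.04 after AI-8-45, and 12.96, 12.95, 13.07 and 13.06 after AI-9-54, and the groups overlapped. The difference was -0.04 after AI-8-45 (interval -0.15 to 0.07, limma adjusted p 0.789) and 0.02 after AI-9-54 (interval -0.09 to 0.13, adjusted p 0.864). This signal was near the top of the table, whose highest value was 13.8. The other 3 probe sets disagreed in sign, at -0.15, 0.14 and 0.13 after AI-8-45 and -0.09, 0.13 and 0.12 after AI-9-54, and none passed the test over all probe sets with 1 symbol (adjusted p 0.609 to 0.746). Probe sets 17548379 and 17548744 had equal values on several arrays and are not independent. A probe set shared with the small nucleolar RNA gene Snord14e, hosted in Hspa8, differed by -0.12 after AI-8-45 and -0.37 after AI-9-54 (adjusted p 0.818 and 0.137).

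AI-8-45 was compared with AI-7-54 at equal dose. Of 8 measured members, 4 were lower and none higher at a limma adjusted p under 0.05, Hspa1b, Hspa1a, Fkbp4 and Hspa4. Hspa1a and Hspa1b may not be 2 separate counts, because the split of signal between them is uncertain. The same limit holds for medians over the 8. Among all genes 3.53% were called lower and 2.13% higher. Those shares include dim genes: the median of the genes' mean signal was 6.91 over all genes and 10.2 over the members. With genes below the median of all values left out, 1640 genes were called, against 1255 in the main fit. The share among genes as bright as the members was not tested. The same 4 of 8 were those in which every AI-8-45 array lay below every AI-7-54 array, as in 9.07% of all genes. This pattern rests on the same values as the calls and adds no separate support. The median difference of the 8 was -0.38, with a range of -1.95 to -0.03, beside a median of 0.00 over all genes.

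AI-9-54 was then compared with AI-7-54, where doses were 50 and 100 µM, and an effect of compound cannot be told apart from one of dose. It shares its AI-7-54 arrays with the first comparison and is not independent of it. Hspa1b, Fkbp4, Hspa1a and Hspa4 were lower, 4 of 8, and none was higher (6 of 8 with the replicate number as a block, with Hsph1 and Hsp90aa1), while 7.29% of all genes were called lower and 6.87% higher. The groups did not overlap in the 4 members called in the main fit and overlapped in the others. In that direction 12.0% of all genes did not overlap, and this pattern again adds no separate support. The median difference of the 8 was -0.35 (range -1.48 to 0.02), beside -0.00 over all genes.

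In the comparison of AI-9-54 with AI-8-45 the doses again differed. No member passed limma's test, while 0.600% of all genes were called lower and 0.708% higher, and 2 of 8 members had an unadjusted p under 0.05, against 2534 of 22180 genes. These were Hspa1b, at 0.47 higher after AI-9-54 (interval 0.17 to 0.78, limma adjusted p 0.159), and Hspa1a, at 0.23 (interval 0.02 to 0.45, adjusted p 0.385). The Hspa1a groups did not overlap, a pattern in that direction seen in 3.83% of all genes, and the Hspa1b groups did. The other 6 members had differences from -0.09 (Fkbp4, interval -0.27 to 0.10) to 0.07 (Hspa8, interval -0.04 to 0.17). The interval of Hsph1, -0.38 to 0.39 with 4 arrays each, was the widest of these. With the replicate number as a block the Hsph1 difference was 0.002 ± 0.076 (SE) on the same arrays. The smallest difference that could be detected was not tested.

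**Figure D2:**
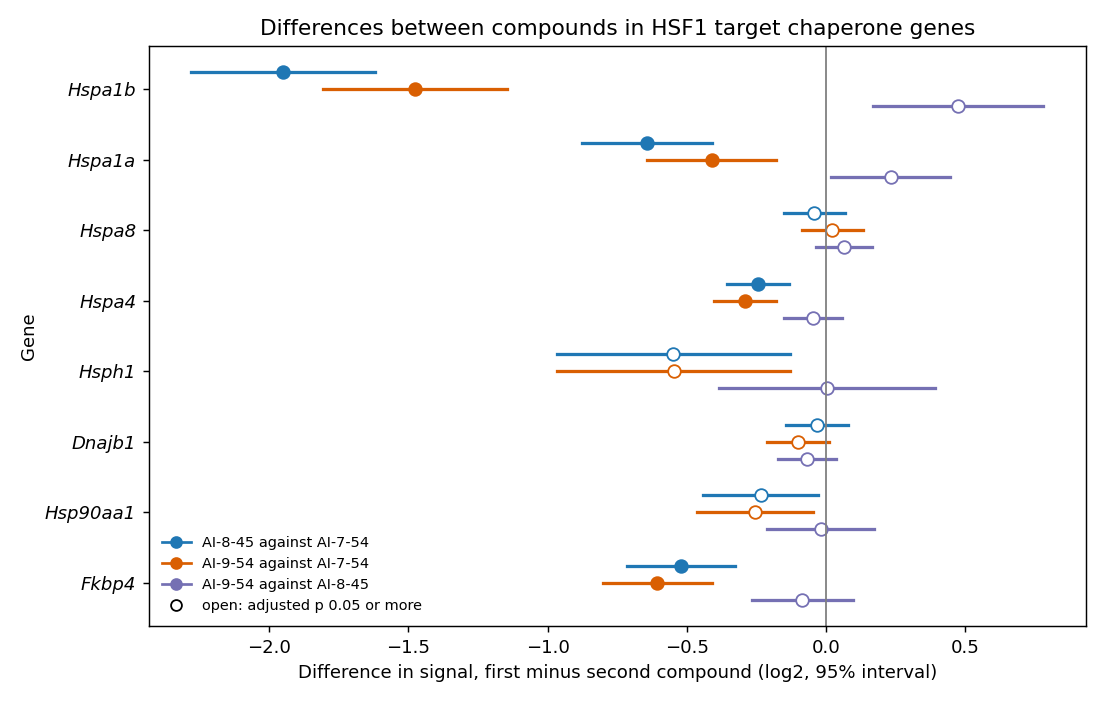
Log2 difference (horizontal axis) of each member (vertical axis) in the 3 comparisons, with 95% intervals from limma; filled points have an adjusted p under 0.05. Hspa1b lies at -1.95 and -1.48 against AI-7-54, and the intervals of Dnajb1 and Hspa8 cross 0 in every comparison.

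Replicates 1 and 2 differed from replicates 3 and 4 in several members, and the labels do not say what the numbers stand for. Hsph1 was higher on replicates 3 and 4 by 0.43 after AI-7-54, 0.47 after AI-8-45 and 0.56 after AI-9-54. The same difference was 0.13, 0.24 and 0.30 in Hsp90aa1 and 0.17, 0.18 and 0.28 in Fkbp4. It was not of 1 sign in Hspa1b (-0.11, -0.30 and 0.22), Hspa1a (-0.49, -0.19 and 0.02), Hspa4 (0.14, 0.02 and -0.09) or Dnajb1 (-0.08, 0.05 and 0.12). In Hspa8 it was 0.02, 0.07 and 0.11. AI-7-54 has 1 array, replicate 1, in the first set. These sets were noticed in the same arrays, and the step between them is given as a description.

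**Figure D3:**
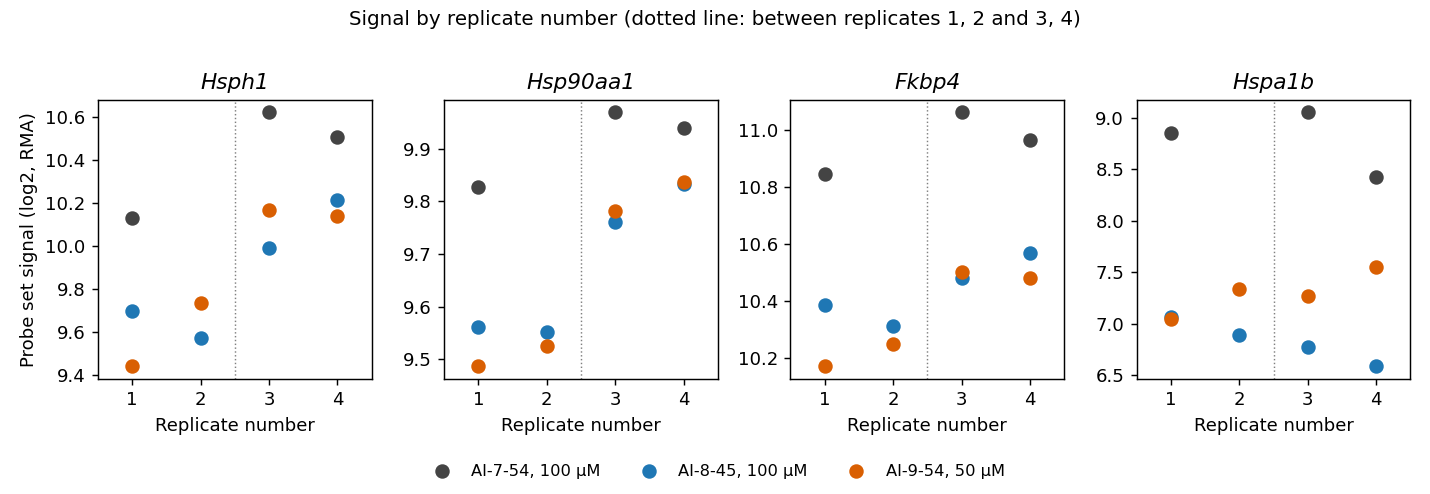
Log2 RMA signal (vertical axis) by replicate number (horizontal axis) for 4 members, 1 point per array, coloured by compound. Points right of the dotted line are higher in Hsph1, Hsp90aa1 and Fkbp4 under each compound, but not in Hspa1b.

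With the replicate set in the model, Hsph1 and Hsp90aa1 passed the test against AI-7-54. For Hsph1 the difference was then -0.47 after AI-8-45 (limma adjusted p 0.00263) and -0.46 after AI-9-54 (0.00108), and for Hsp90aa1 it was -0.20 (0.0199) and -0.22 (0.00609). Hspa1b stood at -1.87 within replicates 1 and 2 and -2.06 within replicates 3 and 4 for AI-8-45 against AI-7-54, and at -1.66 and -1.33 for AI-9-54. Fkbp4 stood at -0.50 and -0.49, and at -0.64 and -0.52. Hspa1a stood at -0.87 and -0.58 for AI-8-45, and at -0.75 and -0.24 for AI-9-54, the last not called (adjusted p 0.0795). Hspa4 stood at -0.16 and -0.28 for AI-8-45 (adjusted p 0.39 and 0.0657, neither called) and at -0.15 and -0.38 for AI-9-54 (adjusted p 0.259, not called, and 0.011). Within replicates 1 and 2 AI-7-54 has 1 array, and no member was called there for AI-8-45 (adjusted p 0.103 for Hspa1a, 0.113 for Hspa1b). Hspa1b differed between AI-9-54 and AI-8-45 by 0.21 within replicates 1 and 2 and by 0.73 within replicates 3 and 4. Whether a comparison differed between the sets was tested after seeing the data, and the lowest limma adjusted p of a member was 0.233 (Hspa1a, AI-9-54 against AI-7-54). That test called 0, 9 and 3 of all 22180 genes in the 3 comparisons, so it says little about the members.

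Other genes of the folding system were taken from lists of partners and relatives. These lists were chosen with earlier results of these data known, so their counts carry no test. Their counts stand beside 3.53% of all genes called lower and 2.13% higher after AI-8-45 against AI-7-54. After AI-9-54 against AI-7-54 the shares were 7.29% lower and 6.87% higher. These shares include dim genes, and shares among genes of like level were not tested. The median of the genes' mean signal was 6.91 over all genes. It was 11.4 for CCT chaperonin, 10.5 for endoplasmic reticulum and 9.78 for mitochondrial chaperone genes. Of 5 measured heat shock factor and HSF1 regulator genes, 0 passed limma's test in any comparison. An unadjusted p under 0.05 was seen in 0 after AI-8-45 and 1 after AI-9-54 against AI-7-54, and in 0 between these compounds. Over all 22180 genes the numbers were 3702, 5421 and 2534. Among the 5 genes the factor gene Hsf2 stood at -0.06 after AI-8-45 and -0.05 after AI-9-54 relative to AI-7-54. Of 7 other HSP70 and HSP110 genes, Hspa14, whose product works at the ribosome, was lower after AI-8-45 (-0.20), a call lost in 7 of the 11 fits that dropped an array (adjusted p 0.0512 to 0.19). Among 7 nucleotide exchange factor genes, Hspbp1, for an HSP70 exchange factor, was lower after AI-8-45 (-0.38 ± 0.06, SE, limma adjusted p 0.00356) and after AI-9-54 (-0.44 ± 0.06, adjusted p 0.000465). Bag3 and Hspb1 are classic HSF1 targets and were named after their values were seen. Bag3 stood at -0.12 and -0.03 (adjusted p 0.3 for the former), and Hspb1, whose signal lay below the array medians, at 0.06 and -0.03 (adjusted p 0.662 and 0.821).

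Of 17 HSP90 co-chaperone genes, Nudc was lower after AI-8-45 (-0.32 ± 0.05, SE, limma adjusted p 0.0018), 1 gene in all, or 5.88% called beside 5.66% of all genes. After AI-9-54, 3 were lower and 2 higher, with Nudc at -0.36 (adjusted p 0.000266), the HSP70 and HSP90 adaptor gene Stip1 at -0.30 and the CDC37 relative Cdc37l1 at 0.25 (29.4% called beside 14.2% of all genes). The Stip1 call was lost in 4 of those 11 fits (adjusted p 0.0553 to 0.0942). Of 11 J-domain genes, the ribosome-bound Dnajc2 was lower after AI-8-45 (-0.22), and Dnajc2 (-0.17) and Dnaja2 (-0.15) were lower after AI-9-54. The shares called were 9.09% and 18.2%, beside 3.53% and 7.29% of all genes called lower (5.66% and 14.2% in either direction). Those calls were lost in 3, 7 and 9 of the 11 fits (adjusted p 0.0573 to 0.12, 0.0501 to 0.155 and 0.0514 to 0.191), and the Dnaja2 call also with the replicate number as a block. Of 6 small heat shock protein genes, 0 were called by limma in any comparison. An unadjusted p under 0.05 was seen in 2, both between AI-9-54 and AI-7-54, beside 5421 of all 22180 genes there. The medians against AI-7-54 were -0.09 and -0.10 for co-chaperones, -0.02 and 0.04 for J-domain genes, and 0.04 and -0.00 for small heat shock proteins.

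Chaperone genes of other compartments were also called, in 1 direction. Of 8 mitochondrial chaperone genes, 3 were lower after AI-8-45 (median -0.17) and none was higher, beside 3.53% of all genes called lower. These were the HSP60 gene Hspd1 (-0.41), the J-domain gene Dnaja3 (-0.34) and the exchange factor gene Grpel1 (-0.27). Dropping an array ended these calls in 5, 1 (AI-7-54 replicate 3) and 3 of 11 fits (adjusted p 0.0609 to 0.155, 0.0543, and 0.0572 to 0.0812). After AI-9-54, 4 were lower (median -0.27), beside 7.29% of all genes called lower. They included Hspd1 at -0.43, Dnaja3 at -0.31 and the mitochondrial HSP90 gene Trap1 at -0.29. Of those, Hspd1 lost the call without AI-7-54 replicate 3 or 4 (adjusted p 0.058 to 0.0606).

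Genes of the CCT chaperonin, the ring that folds actin and tubulin, were lower in 5 of 8 after AI-8-45 (median -0.22) and in 6 of 8 after AI-9-54 (median -0.26), and none was higher, beside 3.53% and 7.29% of all genes called lower. After AI-9-54 they were led by Cct8 at -0.42 (limma adjusted p 0.00144), Cct3 at -0.36 and Cct6a at -0.29. After AI-8-45 they stood at -0.34, -0.32 and -0.31, where dropping AI-7-54 replicate 3 ended the calls of Cct8 and Cct3, as did dropping AI-7-54 replicate 4 for Cct8 (adjusted p 0.0578 to 0.073 for Cct8 and 0.0544 for Cct3). Of 14 endoplasmic reticulum chaperone genes, 2 were lower after AI-8-45 (14.3%) and 3 after AI-9-54 (21.4%), and none was higher. Of these, Hyou1, an HSP110 relative, stood at -0.34 in both, Sdf2l1 at -0.24 and -0.29, and the calreticulin gene Calr at -0.23 after AI-9-54. The Sdf2l1 call after AI-8-45 was lost in 6 of 11 such fits (adjusted p 0.0676 to 0.11).

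A last list held 6 measured genes that are known as HSF1 targets in other settings. Between AI-8-45 and AI-7-54 limma called 0 of them (list median 0.03). An unadjusted p under 0.05 was seen in 1, beside 3702 of all 22180 genes. After AI-9-54, 3 were higher and 1 lower than after AI-7-54, beside 6.87% of all genes called higher and 7.29% lower. Gadd45b stood at 0.42, Rgs2 at 0.41 and the autophagy receptor gene Sqstm1, named after its value was seen, at 0.27. The mitochondrial ribosomal gene Mrpl18 was lower (-0.34). Dropping an array ended the calls of Gadd45b in 4 and of Mrpl18 in 2 of 11 fits (adjusted p 0.0552 to 0.113 and 0.0737 to 0.0773). Between AI-9-54 and AI-8-45, Sqstm1 was higher (0.25, adjusted p 0.0394) and the HSP90 co-chaperone gene Fkbp5 lower (-0.19, adjusted p 0.0368). Both were near the threshold, and were lost in 9 and 11 of 11 such fits (adjusted p 0.0511 to 0.118 and 0.0514 to 0.101).

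**Figure D4:**
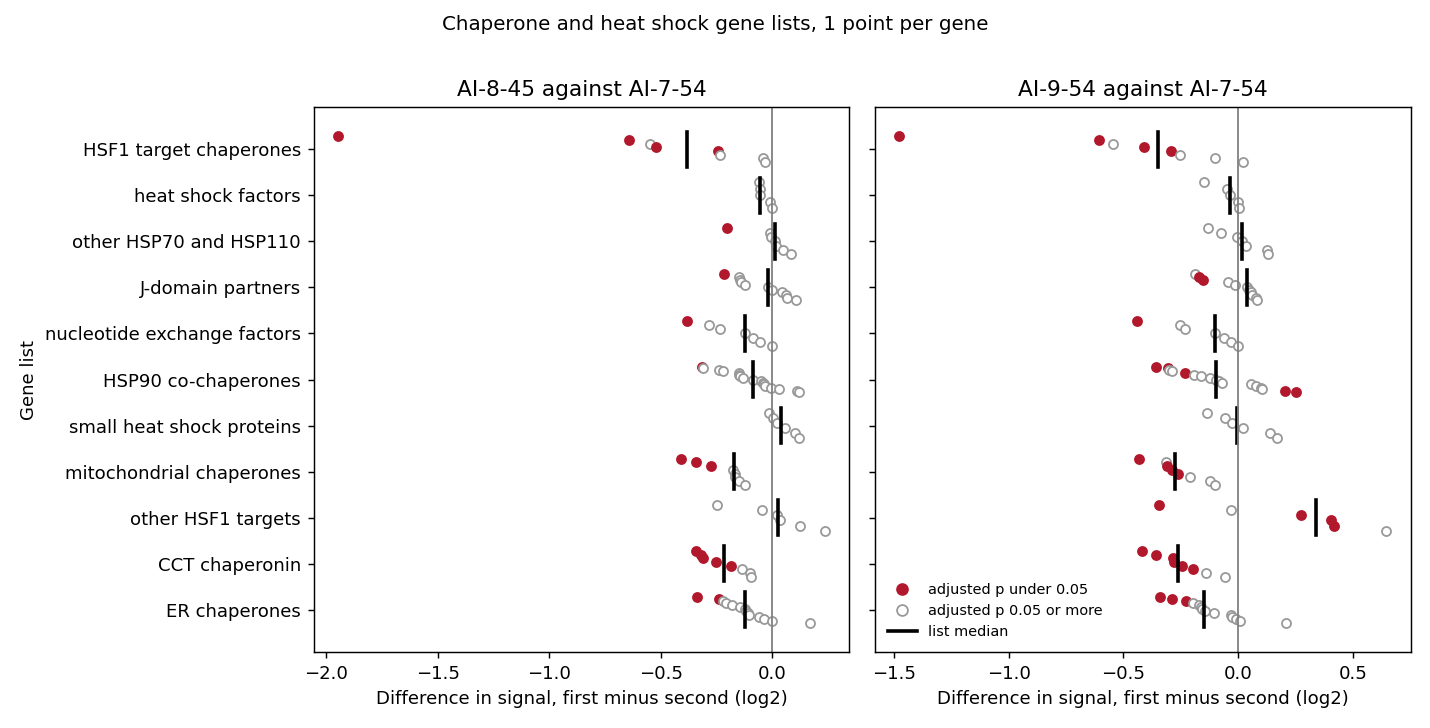
Log2 difference against AI-7-54 (horizontal axis) of each gene, 1 point per gene, by list (vertical axis), for AI-8-45 on the left and AI-9-54 on the right. Filled points passed the test and black lines are list medians; the HSF1 target chaperones have medians of -0.38 and -0.35, and the heat shock factors have no filled point.

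Outside the members, the genes whose signal was most like Hspa1b over the 11 arrays were Bex6 (Pearson r 0.97), the chemokine receptor gene Ccr2 (0.96), the sterol synthesis gene Cyp51 (0.95), Rexo2 (0.95), Scd1 (0.95), for stearoyl-CoA desaturase, and Insig1 (0.94), which restrains sterol synthesis. Of the members, Hspa1a was most like it (0.88), then Fkbp4 (0.83) and Hspa4 (0.79), and Hspa8 least (0.18). Hsp90aa1 was, outside the members, most like the adenosine kinase gene Adk (0.99), the replication genes Pola2 (0.98), Fen1 (0.97) and Exo1 (0.97), and Snrnp25 and Cdca7l (each 0.97). Of the members, Hsph1 was most like Hsp90aa1 (0.97), and Hspa1b stood at 0.61. The arrays share 3 compound groups and the replicate sets, so these values describe shared steps between groups of arrays and carry no test. With 1 array left out the lowest r was 0.92 for the 6 genes outside the members named with Hspa1b and 0.96 for the 6 named with Hsp90aa1. For members with Hspa1b it was 0.86 for Hspa1a, 0.68 for Hspa4 and, lowest, 0.08 for Hspa8. For members with Hsp90aa1 it was 0.96 for Hsph1, 0.48 for Hspa1b and, lowest, 0.32 for Hspa1a.

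The arrays themselves differed little in scale, with medians of 6.61 to 6.68. Of 13 T-cell markers 9 were measured, with array medians of 10.7 to 11.3. Array medians of the B-cell, myeloid, erythroid and stromal or endothelial lists lay between 5.63 and 6.98. No gene of those 4 lists was called by limma in any comparison. Their genes with an unadjusted p under 0.05 numbered 1, 3 and 4, in the order above. Over all 22180 genes the numbers were 3702, 5421 and 2534. T-cell markers were lower in 1 of 9 after AI-8-45 and in 5 of 9 after AI-9-54 than after AI-7-54, beside 3.53% and 7.29% of all genes. They were lower in 2 of 9 after AI-9-54 than after AI-8-45, beside 0.600% of all genes. These shares of all genes include dim genes and were not matched to the level of the markers. The part of T-cell markers in the chaperone values was not tested. In bulk RNA, fewer cells of a type and less RNA per cell cannot be told apart. The labels do not say whether replicates were separate cultures, and a p-value here reflects only array-to-array spread, possibly technical.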

How the data were processed

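The data were 11 single-colour Affymetrix arrays of total RNA in 3 compound groups. Per the submitters' processing notes the authors used RMA and Partek 6.6, and the deposited table holds 1 log2 value per probe set and array (41345 probe sets, 3.23 to 13.8). The log2 scale was read from that range, and the genome build is not given in the sources used here. Symbols came from the platform annotation, updated through Entrez identifiers (23328 of 23521 found, GRCm38.p6). For a gene with several probe sets (1082 of 22180 genes) the one of highest mean signal was taken. No filter on dim genes was applied in the main fit. Precision rests on the spread between arrays and on how many arrays there are.

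Comparisons came from 1 limma 3.58.1 model on all arrays in R 4.3.3 (8 residual degrees of freedom, prior 4.14), two-sided, with Benjamini-Hochberg adjustment over all genes and calls at an adjusted p under 0.05. The method was tested on simulated data whose noise was independent between arrays. Those data held no step between replicate sets, so that test does not cover one. Members and lists were chosen with earlier results of these data known. The rule named all members, up to 3 called genes per list and comparison with the largest difference, and the 6 genes most like Hspa1b and Hsp90aa1 by Pearson r. Genes at or above the median of all values were ranked for this, without members and predicted, small RNA or receptor-family symbols. Bag3, Hspb1, Hsf2 and Sqstm1 (AI-9-54 against AI-7-54) were added after their values were seen. Sequences are RefSeq's. The 3-unit search with 1 mismatch and the test between replicate sets were chosen after seeing the data. Deviations of same-numbered arrays correlated above 0.1 in all 3 pairs of AI-7-54 and AI-9-54 (0.12 to 0.16), but not in all pairs of the other comparisons. AI-7-54 replicate 1 correlated more with AI-9-54 replicate 2 (0.32), and AI-7-54 replicate 3 more with AI-9-54 replicate 4 (0.24). Neither the labels nor these values show pairing by number apart from the replicate sets, and the block is given only as an alternative fit. Alternatives were 2 scalings, 2 filters, 2 treatments of probe sets, a variance trend, array weights, only the groups compared, the replicate number or set as a factor, each set alone and each array left out. Plots used matplotlib 3.10.9 (Python 3.11.15).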

Additional observations from a re-analysis of the deposited data

How the results depend on the processing

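Results were recomputed under 24 alternatives (23 for Hspb1, which a filter on level removed), and no direction that was called turned. Members called between AI-8-45 and AI-7-54 numbered 4, 3 to 4 with 1 array left out, 5 with array weights, 6 once replicate set was a model term, and 0 with replicates 1 and 2 only, where AI-7-54 has 1 array that is assumed to vary like the other groups. Between AI-9-54 and AI-7-54 they numbered 3 to 6, and between AI-9-54 and AI-8-45 0 throughout. All genes called between AI-8-45 and AI-7-54 (1255) became 1949 once replicate set was a model term, 2 with replicates 1 and 2 only, 613 with replicates 3 and 4 only, and 540 (without AI-7-54 replicate 3) to 1229 with 1 array left out. Between AI-9-54 and AI-7-54 (3139) they came to 593 with replicates 1 and 2 only and 2103 to 3290 with 1 array left out. Between AI-9-54 and AI-8-45 (290) they came to 141 with only the groups compared, 816 once replicate set was a model term, 6 with replicates 1 and 2 only, 143 with replicates 3 and 4 only, and 128 to 257 with 1 array left out. The cause was not tested. With array weights Hsph1 was called against AI-7-54 (adjusted p 0.0429 after AI-8-45 and 0.0458 after AI-9-54). With the mean of a gene's probe sets the calls of Dnaja3 (both compounds), Cct6a (AI-8-45) and Rgs2 (AI-9-54) ended. Centring arrays on their medians ended the calls of Hspa14 (AI-8-45), of Dnajc2 and Dnaja2 (AI-9-54) and of Fkbp5 and Sqstm1 (AI-9-54 against AI-8-45), and a further quantile normalization those of Dnajc2 and Dnaja2 (AI-9-54).

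Replicate numbers were not shown to pair the arrays. Over all comparisons, of 10 same-numbered pairs, 6 correlated above 0.1 (-0.02 to 0.45), and 3 of 11 arrays correlated best with their own number. With the replicate number as a block, members called came to 5, 6 and 0 in the order above, and all genes called to 1408, 3297 and 517. Hsph1 was then called at -0.48 against AI-7-54 after either compound (limma adjusted p 0.0106 after AI-8-45 and 0.00443 after AI-9-54), and Hsp90aa1 at -0.21 after AI-9-54 (adjusted p 0.0225). Signal over background was not measured, which limits what can be said of dim probe sets such as those of Hspa1a and Hspb1.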
